A study of Mus musculus with 40 samples.

Results

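The 10 genes described here, of 23480 listed, make fatty acids, elongate and desaturate them, or coat the droplets in which they are stored: Acly, Acaca, Fasn, Elovl6, Scd1, Scd2, Fads1, Fads2, Plin2 and Plin3. They were taken by symbol, and all 10 were listed and passed the filter on low values in both tables of the series. Their levels were read in 4T1, a mouse mammary carcinoma line, in which each population of cells carried 1 of 10 short hairpin RNAs (shRNAs). The cell cuts such a stem-loop into a small RNA, which lowers mRNAs of matching sequence. Hairpin 66708 and the hairpins Slpi1U1, Slpi1U2, Slpi2 and Slpi4 formed the table for Slpi, a secreted inhibitor of leukocyte proteases. Hairpin 88943 and the hairpins Mgp1, Mgp1U1, Mgp1U3 and Mgp2 formed the table for Mgp, matrix Gla protein. The study asked how far hairpins of the TRC collection and microRNA-embedded hairpins chosen by the shERWOOD algorithm alter genes other than their target.

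Hairpins 66708 and 88943 were treated as the TRC hairpins from their catalogue-style numbers and their drug, 1 µg/ml puromycin, and the other 8 as shERWOOD hairpins, selected with 500 µg/ml hygromycin. No label states this source, so hairpin source, vector and drug cannot be told apart in any comparison below. All cells were infected at a multiplicity of 0.3, selected for about 10 days and grown in high-glucose medium with serum, per the labels' protocols. An uninfected line or a control hairpin was not analysed here, so a difference between a TRC line and the shERWOOD lines has no untreated baseline. The labels list 4 samples per hairpin, titled A_1, A_2, B_1 and B_2, but each hairpin had 2 columns of values. Each column is called a library here. The labels do not tie a column to a letter, a number or a separate culture. The p-values therefore rest on a spread between libraries that may be technical.

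Fatty acid synthesis starts in the cytosol with citrate. ATP citrate lyase (Acly) splits it to acetyl-CoA, acetyl-CoA carboxylase 1 (Acaca) makes malonyl-CoA, and fatty acid synthase (Fasn) builds palmitate from both. Elovl6 lengthens palmitate to stearate, and the stearoyl-CoA desaturases Scd1 and Scd2 place the first double bond. Fads1 and Fads2 add double bonds to the polyunsaturated acids taken up from food or medium. Plin2 and Plin3 are perilipins, proteins of the droplet surface. Many genes of synthesis and desaturation are activated by SREBP transcription factors, which are cut out of membranes when sterols or unsaturated fatty acids run low, and Plin2 is a known target of PPAR receptors and is stabilised by droplet lipid.

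In GENCODE on GRCm38, the first 3 genes of the pathway lie on chromosome 11: Acly at 100476353 to 100528000 (minus strand), Acaca at 84129672 to 84401651 (plus strand) and Fasn at 120805846 to 120824547 (minus strand). The desaturases lie on chromosome 19. Scd2 spans 44293674 to 44306864 (plus strand) and Scd1 spans 44394455 to 44407879 (minus strand). Fads2 spans 10062765 to 10101746 (minus strand) and Fads1 spans 10182888 to 10196877 (plus strand). Elovl6 is on chromosome 3 (129532355 to 129638495, plus strand), Plin2 on chromosome 4 (86648386 to 86670060, minus strand) and Plin3 on chromosome 17 (56277476 to 56292873, minus strand).

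The upstream sequences of Fasn, Acly and Plin2 are shown because Fasn and Acly were higher in 66708 and lower in 88943, each against its own shERWOOD hairpins, while Plin2 was lower in both. Each is the stretch of 250 bases before the annotated start, 5′ to 3′ on the gene's own strand, from RefSeq (GRCm38.p6), which held 7 of the 10 genes. Capitals mark matches to 4 motifs searched on both strands: the NF-Y box CCAAT, the GC box GGGCGG, the E-box CACGTG and the sterol element TCACNCCAC.
Fasn, chr11:120824548-120824797, minus strand: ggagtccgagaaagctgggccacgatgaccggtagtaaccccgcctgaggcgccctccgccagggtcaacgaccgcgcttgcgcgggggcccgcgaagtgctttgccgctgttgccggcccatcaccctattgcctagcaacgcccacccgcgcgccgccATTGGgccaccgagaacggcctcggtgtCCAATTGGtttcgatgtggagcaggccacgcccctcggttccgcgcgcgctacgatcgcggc
Acly, chr11:100528001-100528250, minus strand: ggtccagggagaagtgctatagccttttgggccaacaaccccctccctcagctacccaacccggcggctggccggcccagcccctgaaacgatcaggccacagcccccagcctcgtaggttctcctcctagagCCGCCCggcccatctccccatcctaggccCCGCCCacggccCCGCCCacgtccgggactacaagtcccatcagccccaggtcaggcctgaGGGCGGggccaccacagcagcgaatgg
Plin2, chr4:86670060-86670309, minus strand: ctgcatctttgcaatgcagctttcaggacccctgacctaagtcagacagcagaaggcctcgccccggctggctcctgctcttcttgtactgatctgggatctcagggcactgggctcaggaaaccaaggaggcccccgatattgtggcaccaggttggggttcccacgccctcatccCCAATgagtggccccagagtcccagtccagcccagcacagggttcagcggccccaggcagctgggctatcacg

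Fasn held 3 matches to the NF-Y box, beginning 90, 62 and 59 bases before the start, and the last pair overlap. Acly held 4 matches to the GC box and none to the NF-Y box. Plin2 held 1 NF-Y match, 73 bases before its start. Of the other windows, Plin3 held 3 GC box matches and 1 NF-Y match, Fads2 held 1 GC box match, and those of Acaca and Elovl6 held none of the 4 motifs. The windows of Acaca (84195188 to 84195437) and Plin3 (56290512 to 56290761) lie inside the gene spans given above, and that of Fads2 (10101504 to 10101753) mostly so. Their matches, or lack of them, therefore do not describe the sequence before the outer start of these genes. Neither the sterol element nor the E-box was found in any of the 7 windows. Among 32851 mouse promoter windows of the same length, 33.8% held an NF-Y box, 32.7% a GC box, 6.02% an E-box and 1.05% a sterol element. A match describes these letters and is not a measured site.

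Depth was 12.2 to 28.5 M reads per library in the Slpi table and 12.1 to 23.3 M in the Mgp table. The epithelial keratins and adhesion genes that mark carcinoma cells were well expressed, all 6 of 6 above 1 CPM (reads of a gene per M counted reads of its library). Their summed level was 2251 to 2296 CPM in 66708 against 1996 to 2143 CPM in the Slpi shERWOOD libraries, and 2577 to 2583 CPM in 88943 against 1533 to 1720 CPM in the Mgp shERWOOD libraries. Of the 6, Krt7 and Krt19 went the other way in the Slpi table, with 183.3 and 46.4 CPM on average in 66708, against 258.3 to 307.7 and 66.5 to 89.2 CPM in the shERWOOD libraries. These marker levels moved with the contrasts below and their part in them was not tested. The 6 adipocyte markers summed to at most 0.491 CPM in any library, with Lep and Plin1 at 0 in the whole Mgp table. Leukocyte markers reached at most 0.386 CPM and endothelial markers at most 0.911 CPM. Of 4 fibroblast markers only Pdgfra passed 1 CPM, and the list summed to 41.9 to 42.1 CPM in 66708 against 40.003 to 53.5 CPM in the Slpi shERWOOD libraries, and to 55.4 to 58.1 CPM in 88943 against 25.1 to 34.3 CPM in the Mgp shERWOOD libraries. Its part in the results was not tested either. The targeted transcripts were higher in the TRC line of their own table: Slpi averaged 150.6 ± 8.14 CPM in 66708 (SD, n = 2) against 46.9 to 61.9 CPM in the Slpi shERWOOD libraries, and Mgp averaged 15.8 ± 0.570 CPM in 88943 (SD, n = 2) against 1.06 to 8.42 CPM in the Mgp shERWOOD libraries. The gene not targeted in a table also differed there: Mgp averaged 104.9 ± 4.64 CPM in 66708 (SD, n = 2) against 14.8 to 31.2 CPM in the Slpi shERWOOD libraries, and Slpi averaged 139.9 ± 7.03 CPM in 88943 (SD, n = 2) against 448.4 to 612.7 CPM in the Mgp shERWOOD libraries. Fewer cells that express a gene and less RNA per cell cannot be told apart in such bulk libraries.

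In the Slpi table, the genes of fatty acid synthesis and desaturation among the 10 were higher in the 66708 line, and the droplet protein Plin2 was lower. Of the 10 genes, 9 were called higher and 1 lower, at an adjusted p under 0.05 (limma's moderated test, Benjamini-Hochberg over 9489 genes). The same contrast called 55.7% of all tested genes, 32.1% higher and 23.6% lower, but with voom on the recovered reads lower calls outnumbered higher ones, 3338 against 2063, with 7 of the 10 genes higher and 1 lower. Both 66708 libraries lay outside the range of the 8 shERWOOD libraries for 9 of the 10 genes, against 48.6% of all tested genes. In CPM this held for 6 of the 10, against 48.5%, since Acaca, Fads1, Fads2 and Plin3 then overlapped. The median log2 difference of the 10 genes was 0.21, beside 0.02 over all tested genes. In the Mgp table the line with 88943 differed from its shERWOOD lines in another way: desaturases were higher, while Acly, Fasn and Plin2 were lower. There 5 of the 10 genes were called higher, 3 lower and 2 not at all, and 8 of 10 had both 88943 libraries outside the shERWOOD range, against 60.4% of all tested genes (also 8 in CPM, against 60.8%). That contrast called 70.7% of 9174 tested genes, 28.7% higher and 42% lower (3947 higher and 2656 lower with voom, with the same counts for the 10 genes), and the median log2 difference was 0.09 for the 10 genes and -0.04 over all tested genes. Whether the contrasts of the 2 tables differ from each other was not tested, since the tables were normalized separately.

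**Figure D1:**
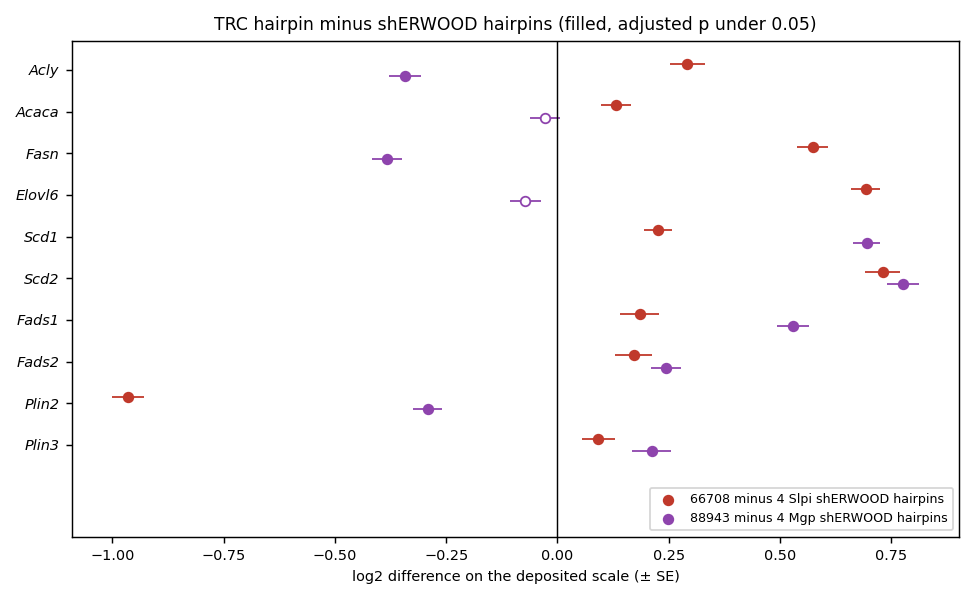
Log2 difference on the deposited scale, TRC hairpin minus the mean of its 4 shERWOOD hairpins, with the standard error as bars, for the 10 genes in the Slpi table (red, 66708) and the Mgp table (purple, 88943). Filled points had an adjusted p under 0.05. Acly and Fasn lie on opposite sides of 0 in the 2 tables, Scd1, Scd2, Fads1 and Fads2 lie right of 0 in both, and Plin2 lies left of 0 in both.

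Values per library below are normalized reads, that is reads scaled for depth within a table, and folds are ratios of their means. Log2 differences are on the deposited variance-stabilized scale, which understates the change of weakly expressed genes. Acly, which supplies the acetyl-CoA, had 4376 and 4470 normalized reads in 66708, against 3145 to 3761 with a median of 3569 in the 8 Slpi shERWOOD libraries. All shERWOOD libraries were lower than both 66708 libraries. The fold in 66708 was 1.25 (log2 difference 0.29 ± 0.04 SE, adjusted p = 1.97e-05). With 88943, in the Mgp table, Acly had 3049 and 3118 normalized reads, against 3777 to 4346 with a median of 4077 in the Mgp shERWOOD libraries, so here every shERWOOD library was above the TRC line. The fold was 0.761 (log2 difference -0.34 ± 0.04 SE, adjusted p = 5.15e-07).

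Acaca, the carboxylase whose malonyl-CoA commits carbon to fat, differed little in either table. It had 1526 and 1603 normalized reads in 66708, against 1317 to 1463 with a median of 1398 in the Slpi shERWOOD libraries. The groups did not overlap on this scale, and the fold was 1.12 (log2 difference 0.13 ± 0.03 SE, adjusted p = 0.00487). In CPM they did, with 89.7 ± 3.46 CPM in 66708 (SD, n = 2) and 79.4 to 90.1 CPM in the shERWOOD libraries, and the call was lost with quantile normalization (adjusted p = 0.067), with voom on the recovered reads (adjusted p = 0.119) and without library 2 of 66708 (adjusted p = 0.0905). Acaca had 1533 and 1597 normalized reads in 88943, inside the Mgp shERWOOD range of 1450 to 1693, and was not called (log2 difference -0.03 ± 0.03 SE, adjusted p = 0.470). Of the 76-base windows of Acaca transcripts, 26.1% also occur in the pseudogene Gm5182, so its count is uncertain.

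Fasn, the synthase itself, had the widest change among the genes of palmitate synthesis. It had 10247 and 9818 normalized reads in 66708, against 5872 to 7103 with a median of 6711 in the Slpi shERWOOD libraries. The gap between the groups was wider than the whole shERWOOD range, and the fold was 1.52 (log2 difference 0.57 ± 0.03 SE, adjusted p = 6.53e-09). Fasn had 6424 and 6459 normalized reads in 88943, against 8159 to 9004 with a median of 8615 in the Mgp shERWOOD libraries. All 8 shERWOOD libraries were above 88943, and the fold was 0.752 (log2 difference -0.38 ± 0.03 SE, adjusted p = 5.35e-08).

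Elovl6, the elongase that acts on palmitate, followed Fasn in the Slpi table. It had 7398 and 7611 normalized reads in 66708, against 4104 to 4767 with a median of 4502 in the shERWOOD libraries. No shERWOOD library came near the 66708 pair, and the fold was 1.68 (log2 difference 0.69 ± 0.03 SE, adjusted p = 5.91e-10). Elovl6 had 5472 and 5328 normalized reads in 88943, within the Mgp shERWOOD range of 5215 to 6149. It was not called in the Mgp table (log2 difference -0.07 ± 0.04 SE, adjusted p = 0.079), but was called lower when library 2 of Mgp2 was left out (adjusted p = 0.00732). The signs of Elovl6 and Acaca in the Mgp table turned positive, uncalled, under other scalings.

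**Figure D2:**
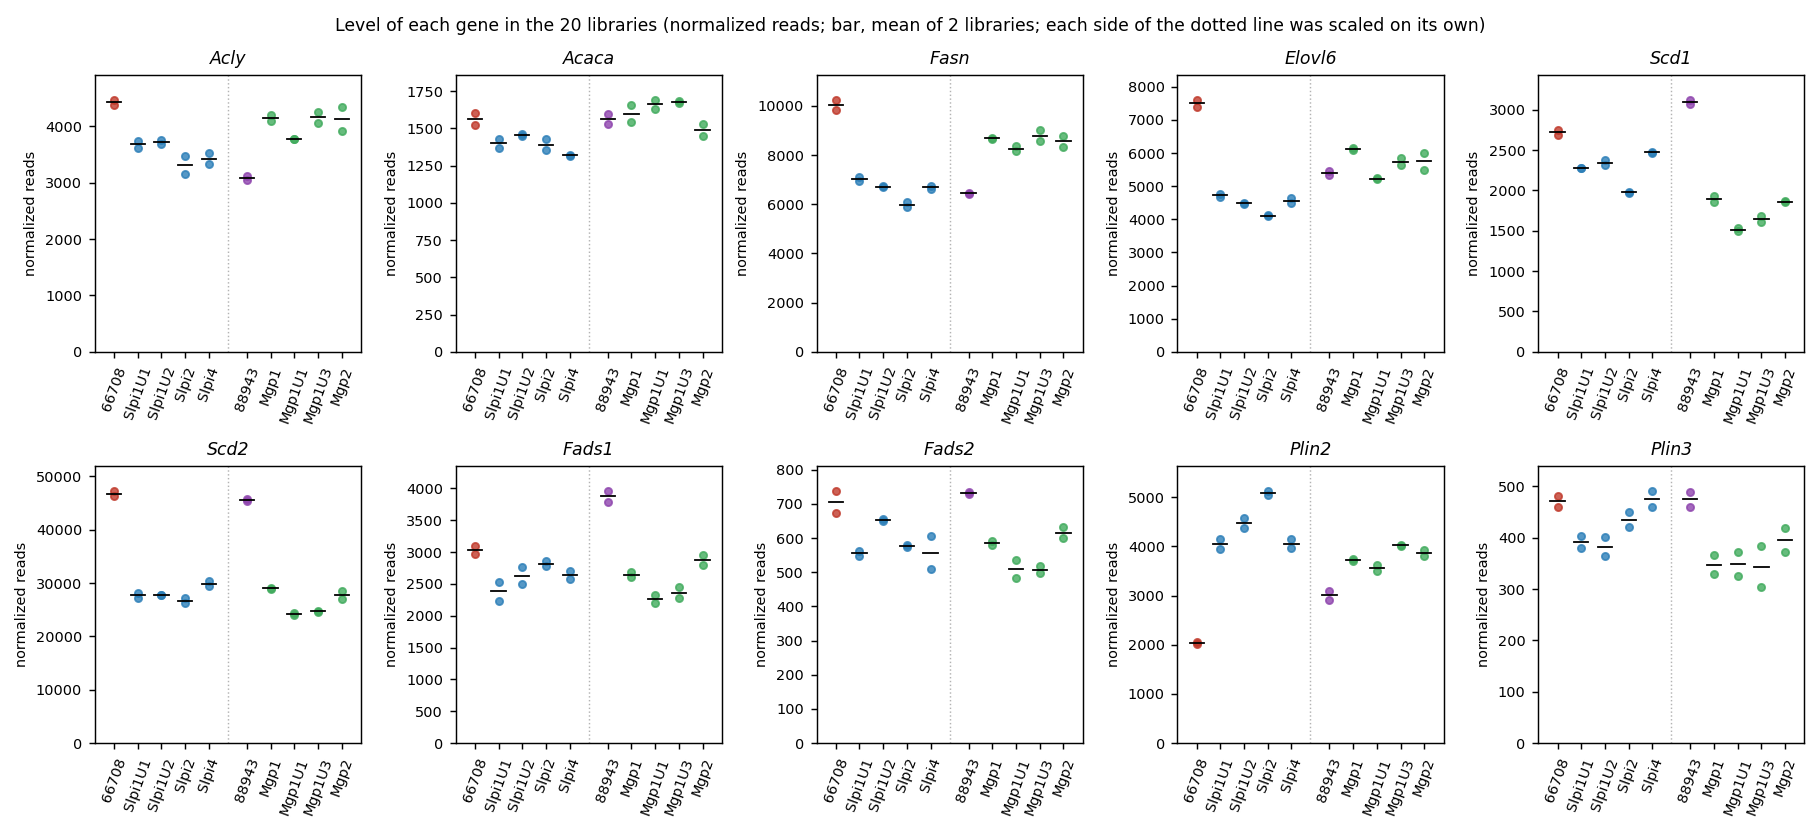
Normalized reads (y axes, each from 0) of the 10 genes in the 20 libraries, by hairpin (x axes), with each library as a point and the mean of the 2 libraries of a hairpin as a bar. The Slpi table stands left and the Mgp table right of the dotted line, each scaled on its own. The 66708 points of Plin2, near 2036 on average, lie below all other Slpi-table points, and the 88943 points of Scd1, near 3097, lie above all other Mgp-table points.

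Scd1, the stearoyl-CoA desaturase best known from liver and fat, was higher in both TRC lines. It had 2693 and 2748 normalized reads in 66708, against 1975 to 2483 with a median of 2300 in the Slpi shERWOOD libraries, a fold of 1.20 (log2 difference 0.23 ± 0.03 SE, adjusted p = 3.09e-05). Scd1 had 3070 and 3125 normalized reads in 88943, against 1501 to 1927 with a median of 1765 in the Mgp shERWOOD libraries. The groups stood clear of each other in both tables, and the fold in the Mgp table was 1.79 (log2 difference 0.69 ± 0.03 SE, adjusted p = 2.45e-11). Scd2, also on chromosome 19, was the most abundant of the 10 genes and was higher in both TRC lines. It had 46251 and 47240 normalized reads in 66708, against 26260 to 30423 with a median of 27767 in the Slpi shERWOOD libraries, a fold of 1.67 (log2 difference 0.73 ± 0.04 SE, adjusted p = 1.68e-09). Scd2 had 45367 and 45661 normalized reads in 88943, against 24101 to 29080 with a median of 25891 in the Mgp shERWOOD libraries. No shERWOOD library of either table reached the TRC level, and the fold in the Mgp table was 1.72 (log2 difference 0.78 ± 0.04 SE, adjusted p = 4.31e-11). The log2 differences of Scd2 in 66708 and 88943 were 0.51 and 0.89 with quantile normalization, and 0.65 and 0.92 with voom. Only 1.41% of Scd2 windows of read length also occur in Scd1, and 2.25% of Scd1 windows in Scd3, so few reads of a pair could be split between them.

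Fads1, the delta-5 desaturase of polyunsaturated acids, had 3096 and 2968 normalized reads in 66708, against 2238 to 2862 with a median of 2641 in the Slpi shERWOOD libraries. The 66708 libraries were above the others by a small margin, and the fold was 1.16 (log2 difference 0.18 ± 0.04 SE, adjusted p = 0.00279). Fads1 had 3960 and 3793 normalized reads in 88943, against 2199 to 2952 with a median of 2530 in the Mgp shERWOOD libraries, a fold of 1.53 (log2 difference 0.53 ± 0.04 SE, adjusted p = 2.82e-09). Fads2, the delta-6 desaturase that acts before Fads1, gave fewer reads than Fads1 in every library. It had 738 and 674 normalized reads in 66708, against 510 to 656 with a median of 576 in the Slpi shERWOOD libraries, a fold of 1.21 (log2 difference 0.17 ± 0.04 SE, adjusted p = 0.00264). Fads2 had 736 and 729 normalized reads in 88943, against 482 to 633 with a median of 559 in the Mgp shERWOOD libraries, a fold of 1.32 (log2 difference 0.24 ± 0.03 SE, adjusted p = 8.59e-06). On this scale both TRC lines were above every shERWOOD library for both genes, but in CPM library 2 of 66708 lay inside the Slpi shERWOOD range for both. The Slpi-table calls of both genes were lost without library 1 of 66708, which left 1 library for that line. The log2 differences were then 0.16 for Fads1 and 0.13 for Fads2.

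Plin2, which coats droplets in most cell types, was lower in both TRC lines. It had 2063 and 2009 normalized reads in 66708, against 3951 to 5126 with a median of 4259 in the Slpi shERWOOD libraries. The groups were far apart, and the fold was 0.461 (log2 difference -0.96 ± 0.04 SE, adjusted p = 4.64e-11), the only fall among the 10 genes in that table. Plin2 had 2910 and 3096 normalized reads in 88943, against 3507 to 4036 with a median of 3774 in the Mgp shERWOOD libraries. Again no shERWOOD library was as low, with a fold of 0.792 (log2 difference -0.29 ± 0.03 SE, adjusted p = 7.76e-07). Plin3, a perilipin that moves between cytosol and nascent droplets, had 482 and 460 normalized reads in 66708, overlapping the 365 to 491 of the Slpi shERWOOD libraries. Its call there (log2 difference 0.09 ± 0.04 SE, adjusted p = 0.0471) was lost under each other scaling and with voom (adjusted p = 0.109 to 0.358), and without either library of 66708 or library 1 of any Slpi shERWOOD hairpin (adjusted p = 0.0693 to 0.286). Plin3 had 490 and 460 normalized reads in 88943, against 304 to 420 with a median of 369 in the Mgp shERWOOD libraries, a fold of 1.32 (log2 difference 0.21 ± 0.04 SE, adjusted p = 0.000471).

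Treating each hairpin as 1 sample, so that the 4 shERWOOD means give the spread, left 4 of the 9 higher calls in the Slpi table, those of Acly, Fasn, Scd2 and Elovl6. Plin2 also passed that test. In the Mgp table it left the 5 higher and 3 lower calls of the 10 genes in place.

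Ratios of reads between 2 genes of a library do not depend on how libraries are scaled. Scd2 had 4.66 ± 0.211 reads per Fasn read in 66708 (SD, n = 2) against 3.91 to 4.59 in the Slpi shERWOOD libraries. In the Mgp table the ratio was 7.07 ± 0.00579 in 88943 (SD, n = 2) against 2.75 to 3.34 in the shERWOOD libraries, so the 88943 libraries stood apart, while the 66708 libraries, at 4.51 and 4.81, overlapped the others. Fads1 had 0.686 ± 0.0308 reads per Acly read in 66708, inside the shERWOOD range of 0.598 to 0.910, and 1.26 ± 0.0582 in 88943, above the shERWOOD range of 0.534 to 0.755. Scd2 had 17.2 ± 0.0138 reads per Scd1 read in 66708 against 11.7 to 13.7 in the Slpi shERWOOD libraries, and 14.7 ± 0.118 in 88943, inside the range of 14.5 to 16.3. Scd1 had 0.271 ± 0.0120 reads per Fasn read in 66708, below the Slpi shERWOOD range of 0.320 to 0.371. In 88943 that ratio was 0.481 ± 0.00425, above the Mgp shERWOOD range of 0.179 to 0.223. These ratios were not tested. Plin2 had 4.33 ± 0.0655 reads per Plin3 read in 66708 against 8.08 to 11.98 in the Slpi shERWOOD libraries, and 6.33 ± 0.556 in 88943 against 9.07 to 13.2 in the Mgp shERWOOD libraries. Plin2 had 0.203 ± 0.00230 reads per Fasn read in 66708 against 0.569 to 0.859, and 0.466 ± 0.0186 in 88943 against 0.419 to 0.472, where the libraries overlapped.

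**Figure D3:**
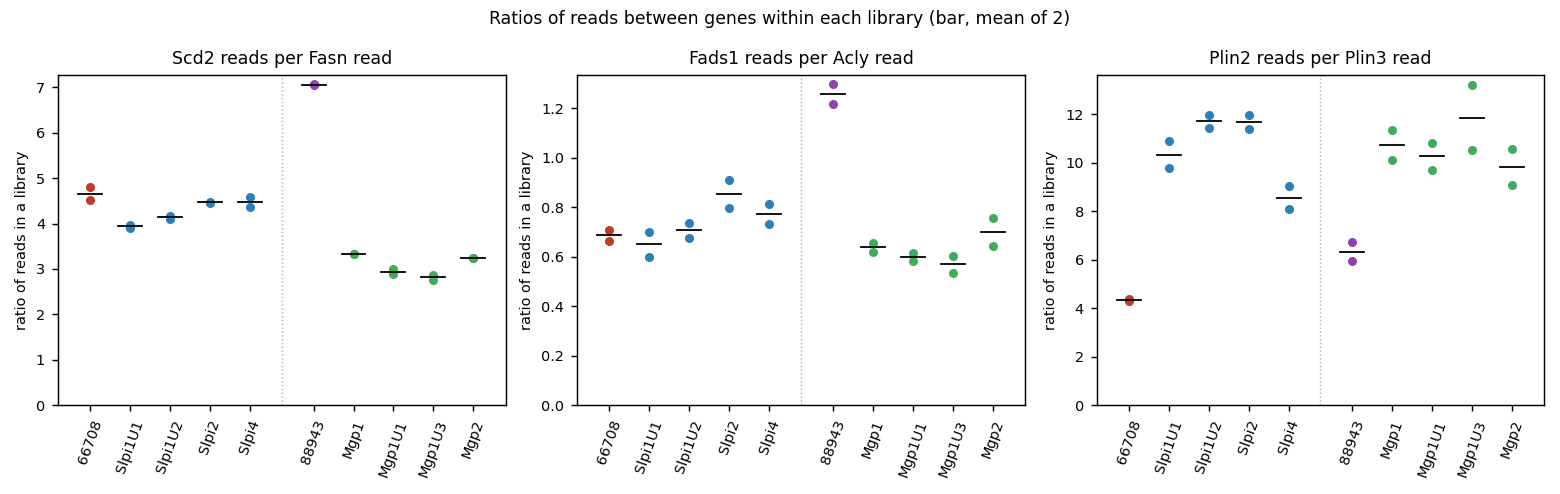
Ratio of reads between 2 genes within each library (y axes, from 0) by hairpin (x axes), with each library as a point and the mean of 2 as a bar, the Slpi table left and the Mgp table right of the dotted line. The 88943 points stand apart at 7.07 Scd2 reads per Fasn read and 1.26 Fads1 reads per Acly read, and both TRC hairpins lie lowest for Plin2 reads per Plin3 read.

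Among the shERWOOD hairpins the spread was smaller. In the F test among the 4 Slpi shERWOOD hairpins, 3 of the 10 genes were called, Plin2 (adjusted p = 0.00157), Scd1 (adjusted p = 0.00311) and Fasn (adjusted p = 0.025), against 7.55% of all tested genes. Over the 6 pairs of these hairpins, 9 of 60 gene tests were called, against 3.36% of all genes' tests. The F call of Fasn was lost without any 1 of the libraries of Slpi2 or Slpi4 (adjusted p = 0.0582 to 0.207), and also with no filter on low values (adjusted p = 0.0738). Fads1 gained one without library 2 of Slpi1U1 (adjusted p = 0.0257), and Elovl6 gained one under both other scalings, with a stricter filter and with voom (adjusted p = 0.0281 to 0.044). Of the 9 pair calls, 8 involved Slpi2. Plin2, highest in Slpi2, had 4150 and 3951 normalized reads in Slpi1U1 against 5043 and 5126 in Slpi2 (log2 difference Slpi1U1 minus Slpi2 -0.30 ± 0.04 SE, adjusted p = 0.00106). Scd1, lowest in Slpi2, had 1975 and 1976 normalized reads in Slpi2 against 2460 and 2483 in Slpi4 (log2 difference Slpi2 minus Slpi4 -0.27 ± 0.04 SE, adjusted p = 0.00115). Fasn had 7103 and 6945 normalized reads in Slpi1U1 against 5872 and 6084 in Slpi2 (log2 difference Slpi1U1 minus Slpi2 0.22 ± 0.04 SE, adjusted p = 0.00998). Elovl6 was higher and Fads1 lower in Slpi1U1 than in Slpi2, with adjusted p = 0.0212 and 0.0498. The remaining call was Plin3, lower in Slpi1U2 than in Slpi4 (adjusted p = 0.0418). The 4 pairs of 66708 with a shERWOOD hairpin gave 35 called of 40 gene tests, against 45.8% of all genes' tests.

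In the Mgp table the desaturases differed among the shERWOOD hairpins. The F test called 6 of the 10 genes, Scd1 (adjusted p = 0.00103), Fads1 (adjusted p = 0.00154), Scd2 (adjusted p = 0.00243), Elovl6 (adjusted p = 0.0174), Fads2 (adjusted p = 0.0177) and Plin2 (adjusted p = 0.0402), against 29.4% of all tested genes. The call of Elovl6 was lost without any 1 of the libraries of Mgp1 or Mgp1U1 (adjusted p = 0.0692 to 0.103), that of Plin2 without any 1 library other than those of Mgp2 (adjusted p = 0.0561 to 0.183), and that of Fads2 without library 1 of Mgp1U1 (adjusted p = 0.0508). The call of Plin2 was also lost with quantile normalization (adjusted p = 0.0506), voom (adjusted p = 0.0664) and no filter (adjusted p = 0.0834), and that of Elovl6 with no filter (adjusted p = 0.0519). Acly gained a call without either library of Mgp2 (adjusted p = 0.0239 and 0.00544), and Acaca without library 2 of Mgp2 (adjusted p = 0.0323). Over the 6 pairs, 16 of 60 gene tests were called, against 11.3% of all genes' tests. Mgp1 and Mgp2 stood above Mgp1U1 and Mgp1U3 for Scd1 and Scd2 in all 4 of the pairs that join them. Scd1 had 1857 and 1927 normalized reads in Mgp1 against 1501 and 1530 in Mgp1U1 (log2 difference Mgp1 minus Mgp1U1 0.25 ± 0.04 SE, adjusted p = 0.0017). Scd2 had 28931 and 29080 normalized reads in Mgp1 against 24446 and 24101 in Mgp1U1 (log2 difference 0.25 ± 0.05 SE, adjusted p = 0.00415). Neither gene was called between Mgp1 and Mgp2 or between Mgp1U1 and Mgp1U3. Fads1 had 2199 and 2330 normalized reads in Mgp1U1 against 2790 and 2952 in Mgp2, its highest hairpin of the 4 (log2 difference Mgp1U1 minus Mgp2 -0.29 ± 0.05 SE, adjusted p = 0.00132). Acly, Fasn and Plin3 were called in none of the 6 pairs. The 4 pairs of 88943 with a shERWOOD hairpin gave 33 called of 40 gene tests, against 64.6% of all genes' tests.

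Across both tables the levels are CPM, set side by side with no test. Per length of exon sequence, Scd2 was the most abundant of the 10 genes, with a median of 305 RPKM over the 10 hairpins, ahead of Plin2 at 62.6, Elovl6 at 47.4, Acly at 43.1 and Fasn at 40.7 RPKM. Fads1 had 33.3, Scd1 26.5, Fads2 10.4, Plin3 6.30 and Acaca 5.26 RPKM. The gene with the widest span was Plin2, with 116.8 ± 1.78 CPM in its lowest hairpin, 66708, and 308.6 ± 1.22 CPM in its highest, Slpi2 (SD, n = 2 each), a 2.64-fold span. Scd1 spanned 2.25-fold and Scd2 2.06-fold, in both cases with 88943 highest and Mgp1U1 lowest, while Acaca spanned 1.21-fold. Hairpin 66708 was highest of the 10 for Acly, Fasn and Elovl6. Hairpin 88943 was highest for Acaca, Scd1, Scd2, Fads1, Fads2 and Plin3 in CPM, but only for Scd1, Fads1 and Fads2 when all 20 libraries were scaled together. For Scd2 the TRC lines were the 2 highest of the 10, with 2681 ± 49.9 CPM in 66708 and 2793 ± 23.1 CPM in 88943 (SD, n = 2 each), and their order changed with the scaling. The shERWOOD hairpins of the 2 tables did not overlap for 5 genes, against 46% of 9144 genes, and for 4 when all 20 libraries were scaled together, against 46.5%. These shares are near the background, so nothing is read from them. Of the 5 genes, Plin3 was the one that overlapped with the joint scaling. Fasn had 362.8 to 431.4 CPM in the Slpi hairpins and 460.7 to 490.6 CPM in the Mgp hairpins, and Elovl6 249.7 to 290.3 and 291.8 to 346.0 CPM. Scd1 had 119.9 to 149.1 CPM in the Slpi hairpins and 84.5 to 106.8 CPM in the Mgp hairpins, Plin2 244.6 to 308.6 and 198.7 to 222.4 CPM, and Plin3 23.6 to 28.7 and 19.0 to 22.2 CPM.

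Over the 10 hairpin means of log2(CPM + 1), some of the genes varied together and others ran opposite. Of 45 pairs of genes, 12 had a Pearson r of at least 0.75 and 2 one of -0.75 or less. The share of all gene pairs with such an r was not computed, so nothing particular to the 10 genes is read from these counts. Fasn went with Elovl6 (r = 0.85) and Acly (r = 0.84), and Fads1 with Fads2 (r = 0.90). Scd1 went with Fads2 (r = 0.89), Plin3 (r = 0.89) and Scd2 (r = 0.87). Plin2 ran opposite to Elovl6 (r = -0.93) and Fasn (r = -0.78). These are descriptions over 10 points that share 2 tables, their scaling and a pair of TRC hairpins that stand apart. Among 9144 genes tested in both tables, the genes most like the members included Idi1 (r = 0.95), an isomerase of sterol synthesis, and Cdk7 (r = 0.92) for Acly, and Sqle (r = 0.99), the squalene epoxidase of sterol synthesis, and Olfm1 (r = 0.97) for Elovl6. Gosr2 (r = 0.98) was among the genes most like Scd2. Zfp706 (r = 0.97) and Kitl (r = 0.96) were most like Fasn, Trp53inp2 (r = 0.98) and Rps6ka5 (r = 0.97) like Scd1, and Cnnm4 (r = 0.97) and Ctdsp1 (r = 0.97) like Fads1. Tmem129 (r = 0.97) and Rhbdf1 (r = 0.95) were most like Fads2, Fxr1 (r = 0.99) and Creb5 (r = 0.96) like Plin2, Maf1 (r = 0.97) and Junb (r = 0.97) like Plin3, and Fam63a (r = 0.88) and Ap4s1 (r = 0.85) like Acaca.

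Of 13 listed regulators of the SREBP pathway and of lipogenesis 10 were tested. In 66708, 7 of them were called higher and 1 lower, with a median log2 difference of 0.11 beside 0.02 over all tested genes. In 88943, 6 were called higher and 3 lower, with a median of 0.12 beside -0.04. With hairpin means as samples these counts in 88943 came to 3 higher and 1 lower, and with voom to 7 higher and 1 lower. The 7 higher calls in 66708 came to 4 with library medians set equal, to 3 with voom, to 3 without library 1 of 66708, to 4 without its library 2, and to 1 with hairpin means as samples. Insig1, which holds SREBP precursors in the membrane and is itself an SREBP target, was higher in 66708 (log2 difference 0.63 ± 0.04 SE, adjusted p = 1.53e-08). Scap, the escort of SREBP, was higher by 0.18, Srebf2 by 0.16 and Mbtps1, the protease of the first cut, by 0.16. The call of Mbtps1 was lost with voom (log2 difference 0.097, adjusted p = 0.0749) and without library 2 of 66708 (adjusted p = 0.052), and that of Scap without its library 1 (adjusted p = 0.0794). In 88943 Insig2 was lower (log2 difference -0.26 ± 0.04 SE, adjusted p = 6.76e-06), while Mid1ip1, a partner of acetyl-CoA carboxylase, was higher by 0.23, Srebf1 by 0.20 and the liver X receptor Nr1h2 by 0.17.

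Genes that supply, activate or elongate fatty acids were called higher for 10 and lower for 1 of 15 tested in 66708, and higher for 7 and lower for 4 in 88943. Their median log2 difference was 0.14 in 66708 and 0.06 in 88943, beside 0.02 and -0.04 over all tested genes. Of all tested genes, 32.1% were called higher and 23.6% lower in 66708, and 28.7% and 42% in 88943. These shares are the background for the other lists as well. The 1 lower call in 66708 was Fads3 (log2 difference -0.15 ± 0.04 SE, adjusted p = 0.00461). With hairpin means as samples 0 genes of this list were called lower there. Acyl-CoA synthetases led in 66708, with log2 differences of 0.51 ± 0.05 SE for Acsl4 (adjusted p = 4.53e-07), 0.39 for Acsl5 and 0.38 for Acsl3, followed by the enoyl reductase Tecr at 0.35. In 88943 Acsl3 was higher by 0.55 and Tecr by 0.46, as was the acetyl-CoA synthetase Acss2 by 0.38. Acsl4, which prefers arachidonic acid, was lower there (log2 difference -0.53 ± 0.04 SE, adjusted p = 3.3e-09).

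Few genes of triglyceride storage passed the filter, 7 of 21, and the droplet proteins Plin1, Plin4, Plin5, Cidea and Cidec were among those that did not. In 66708, 3 were called higher and 2 lower, with a median log2 difference of 0.04. Without library 1 of 66708 only 1 was called higher, and with hairpin means as samples in limma 0 were called lower (1 at an unadjusted p under 0.05). Soat1, which esterifies cholesterol, was higher by 0.46 ± 0.04 SE (adjusted p = 8.66e-07), Agpat2 by 0.15 and the lipase Pnpla2 by 0.12, and the last step of triglyceride synthesis, Dgat1, was lower (log2 difference -0.16). The call of Pnpla2 was lost under every other scaling and with voom (adjusted p = 0.0804 to 0.333). In 88943, 1 was called higher and 4 lower, with a median of -0.10. Lpin1, a phosphatidate phosphatase, was higher by 0.68 ± 0.03 SE with a fold of 2.22 (adjusted p = 5.03e-11). Abhd5, the coactivator of Pnpla2, was lower (log2 difference -0.60 ± 0.03 SE, adjusted p = 1.74e-10), as were the droplet protein Hilpda (-0.29) and Soat1 (-0.24). The call of Soat1 there was lost with quantile normalization (log2 difference -0.12, adjusted p = 0.0585).

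Of 11 tested genes of fatty acid oxidation and PPAR targets, 4 were called higher and 3 lower in 66708, and 3 higher and 5 lower in 88943, with median log2 differences of 0.00 and -0.07. Without library 2 of 88943 only 1 was called higher there, and with hairpin means as samples in limma 0 were called higher and 2 lower (0 and 3 at an unadjusted p under 0.05). Cpt1a, the gate of mitochondrial oxidation and like Plin2 a PPAR target, was lower in both TRC lines, with a log2 difference of -0.50 ± 0.03 SE in 66708 (adjusted p = 2.98e-08) and -0.25 ± 0.03 SE in 88943 (adjusted p = 5.54e-06). Acadl, a long-chain dehydrogenase, was also lower in both, by differences of -0.37 and -0.19, but in 88943 its difference was -0.09 with quantile normalization and its call was lost with hairpin means as samples (adjusted p = 0.130). Fabp5, a fatty acid carrier, was higher in 66708 (0.38) and lower in 88943 (-0.41). Hadha, of the trifunctional protein, was higher in 66708 (0.24), and the receptor Ppard was lower in 88943 (-0.22). These lists were chosen with earlier results of the data known, and nothing particular to them is drawn from their counts.

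**Figure D4:**
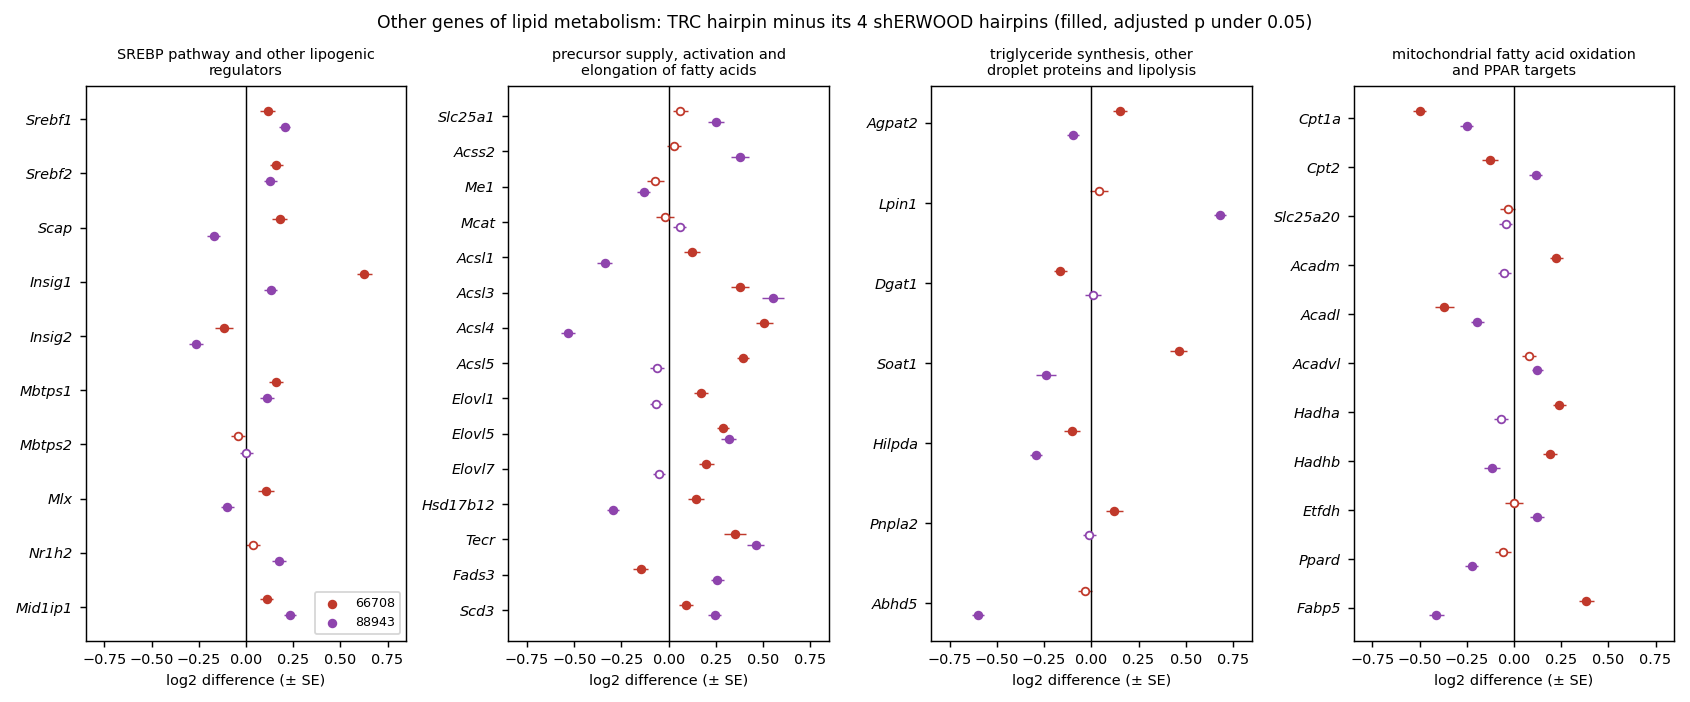
Log2 difference on the deposited scale (x axes), TRC hairpin minus the mean of its 4 shERWOOD hairpins, with the standard error as bars, for the tested genes of 4 lists of lipid metabolism, in the Slpi table (red, 66708) and the Mgp table (purple, 88943). Filled points had an adjusted p under 0.05. Acsl4, Fabp5 and Scap lie on opposite sides of 0 in the 2 tables, and Cpt1a and Acadl lie left of 0 in both.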

How the data were processed

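Per the labels' protocols, 100 ng RNA of 4T1 cells went through NuGEN Ovation RNA-Seq V2 amplification, shearing to a target of 200 bp and sequencing of 76 bp reads. Bowtie2, HTSeq, DESeq and mm10 are named in the submitters' processing notes, without versions, with annotation and strand setting not given in the sources used here. The authors deposited variance-stabilized values on a log2-like scale. In the Slpi table a doubling is a difference of 0.77 at 1000 scaled reads and of 0.36 at 100. Inverting the transform from the smallest value of each table (7.92 and 8.12) gave whole reads for 100% of values within 0.001, and from these normalized reads, CPM and RPKM (GENCODE exon lengths, GRCm38) were computed. There are 40 samples in the labels but 20 columns, 2 per hairpin, each used as 1 replicate. Sampling noise alone did not account for the differences of replicates (chi-square over its degrees of freedom, 1.57 to 12.1). The highest value was that of Mgp2, with 5.99 for the next, Slpi1U1, so levels in Mgp2 rest on the least alike pair of libraries.

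Genes averaging 1 unit or more over the smallest value (121 scaled reads in the Slpi and 139 in the Mgp table) were tested with limma 3.58.1 (R 4.3.3), with an intensity trend. Each table had 1 model with a mean per hairpin, tests were two-sided, and Benjamini-Hochberg adjustment ran over all tested genes of a contrast, F test or pair. Python 3.11.15 was used for the rest. Procedures were tested on simulated data with changes planted in the TRC hairpin and no other differences between hairpins. That test therefore cannot show how the calls hold against spread between cell lines.

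Named genes were the 10 members, up to 4 called genes of each list and table with the largest absolute difference, the 2 genes most like each member, and both targets. Fads3 was named in addition. For Scd2, 1 of these 2 genes is not reported here. Members and lists were chosen with earlier results of these data known. Alternatives were other scalings, filters, voom on recovered reads, a replicate block, hairpin means as samples, and leaving out each library. The counts of non-overlapping groups in CPM for single libraries, and with all libraries scaled together, were added after seeing the data. Hacd2 and Hacd3 matched no symbol.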

Additional observations from a re-analysis of the deposited data

Results flagged for a closer look

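A pair of genes of fatty acid synthesis lay on opposite sides in the 2 tables, with both libraries of each TRC hairpin outside the range of its 8 shERWOOD libraries. Acly differed by 0.29 in 66708 minus its shERWOOD hairpins and by -0.34 in 88943 minus its own (log2), and Fasn by 0.57 and -0.38. On the deposited scale the same held for 4 genes of the lists, among those named for their largest differences. In CPM this failed for Scap in 66708, with 93.6 ± 7.48 CPM (SD, n = 2) against up to 93.7 CPM. It also failed for Agpat2 in 88943, with 21.9 ± 0.667 CPM (SD, n = 2) against 21.3 to 24.1 CPM. Acsl4 differed by 0.51 in 66708 and by -0.53 in 88943, Fabp5 by 0.38 and -0.41, Scap by 0.18 and -0.17, and Agpat2 by 0.15 and -0.10. Without library 1 of 66708 the Slpi-table differences of Scap and Agpat2 were 0.11 and 0.10. With voom the Mgp-table differences of Scap (-0.085, adjusted p = 0.0886) and Agpat2 (-0.0585, adjusted p = 0.408) were smaller and not called. The difference between the tables was not tested for any of them. The share of all tested genes that lie on opposite sides in this way was not computed. Lying outside the shERWOOD range was common by itself, at 48.6% of tested genes for 66708 and 60.4% for 88943. Nothing particular to the genes named here is therefore read from these opposite signs.

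Among the 4 Mgp shERWOOD hairpin means on the deposited scale, 1 hairpin stood apart for 2 genes, by the share of the whole range that separates it from its nearest neighbour (Dixon's test at 95%, which chance passes in about 1 of 20 groups). For Acly this was Mgp1U1, the lowest, with a share of 0.909, and for Plin3 it was Mgp2, the highest, with a share of 0.889. Neither gene was called in the F test among these hairpins (adjusted p = 0.113 for Acly and 0.354 for Plin3). For Plin3 the libraries overlapped, with 372 normalized reads in library 2 of Mgp2 and 383 in library 1 of Mgp1U3. In all, 20 sets of 4 means were examined.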

How the results depend on the processing

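With the replicate number as a block, 5199 genes were called for 66708 against its shERWOOD hairpins (5285 without it) and 6595 for 88943 (6490 without it), and F tests among shERWOOD hairpins called 570 Slpi-table genes (716 without it) and 3179 Mgp-table genes (2699 without it). It changed no count of members in these tests, and 43 of the members' pair tests in the Slpi table were called (44 without it). Same-numbered columns did not deviate together in a uniform way, with correlations of -0.53 to 0.55 in the Slpi and -0.17 to 0.28 in the Mgp table. Some pairs shared deviations of either sign, such as 0.55 for Slpi1U1 with Slpi4 and -0.53 for 66708 with Slpi4. Whether the number pairs the columns is therefore not settled. With a minimum of 3 units, 66708 gave 1735 calls (1083 higher, 652 lower) and 88943 gave 1928 (452 higher, 1476 lower), with 3 members higher since fewer genes passed, and the F tests gave 314 and 994. With no filter, 88943 gave 4302 higher calls and the F tests gave 272 and 1483. With hairpin means as samples, 66708 gave 3042 calls (1831 higher, 1211 lower) with 4 members higher, and 88943 gave 4151 (1626 higher, 2525 lower), on fewer samples. Leaving out 1 library gave 3742 to 5429 calls for 66708 (2208 to 3152 higher, 1534 to 2277 lower), with 6 to 9 members higher and 1 lower, and 5461 to 6799 for 88943 (2168 to 2779 higher, 3293 to 4051 lower), with 5 members higher and 3 to 4 lower. The F tests then called 355 to 1294 Slpi-table genes, the fewest without library 1 of Slpi4, and 1490 to 4520 Mgp-table genes, the fewest without library 1 of Mgp1, with 2 to 4 and 3 to 8 members. Over all tested genes, calls in 66708 were 57.6% higher as deposited, 48.3% with equal medians, 48.4% with quantile normalization and 38.2% with voom, and calls in 88943 were 40.6%, 50.3%, 47.5% and 59.8% higher. Voom moved the median of all genes to -0.05 in 66708, against 0.02, and to 0.07 in 88943, against -0.04. Relative to these shifts the called members kept their direction. The uncalled Acaca in 88943 changed sign with equal medians (0.016), quantile normalization (0.073) and voom (0.10), and the uncalled Elovl6 with quantile normalization (0.082) and voom (0.056). With all 20 libraries scaled together 88943 was highest for 3 members. The cause was not tested except where named.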
